A study of Rattus norvegicus with 45 samples.

Results

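The nuclear genes for the subunits of oxidative phosphorylation were followed across 3 regions of the rat hippocampus. Members were the genes whose symbol in the deposited dChip annotation begins with Nduf, Sdh (Sdha to Sdhd), Uqcr, Cox4 to Cox8 or Atp5. Probe sets naming several genes were left out, and each gene was read from its probe set with the highest mean in the deposited value table. This gave 69 of the 12934 genes with 1 symbol, from 77 of 31099 probe sets. The set held 30 genes of complex I, 4 of complex II, 5 of complex III, 13 of complex IV and 13 of complex V. A further 4 genes match a prefix and were not counted as subunits. Ndufaf1 is an assembly factor of complex I, and Cox4nb, now Emc8, belongs to the membrane complex of the endoplasmic reticulum. Atp5s is now named Dmac2l, and RefSeq lists Cox6c1 as the pseudogene Cox6c-ps1.

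RNA of the CA1, CA3 and dentate gyrus (DG) of 15 male F344xBN rats, a cross of the Fischer 344 and Brown Norway strains used in ageing research, was hybridised to 45 Affymetrix RAE 230 2.0 arrays, 1 per animal and region. Middle-aged rats fed ad libitum (ALMA) were 18 months old. All others were 28 months old: good (ALO_GP) and poor (ALO_PP) behavioural performers fed ad libitum, and good (CRO_GP) and poor (CRO_PP) performers on restricted food, with 3 animals in each class. Restriction began at 14 weeks of age, passed through 10% and 25%, and was held at 40% from 17 weeks. No middle-aged restricted group was analysed here, so diet was compared at 28 months of age. Each sample was dissected tissue, in which fewer cells of a type and less RNA per cell cannot be told apart. The regions were checked against markers. CA1 pyramidal markers were lower in DG than in CA1 and in CA3 than in CA1 (3 of 4 past the threshold in each), CA3 pyramidal markers were higher in CA3 than in CA1 (4 of 5), and dentate granule markers were higher in DG than in CA3 (3 of 3 tested). The array labelled ALO_PP replicate 3 of CA3 stood apart from the other CA3 arrays. Its summed CA1 pyramidal markers in the value table were 4810, within the 4465 to 5263 of the ALO_PP CA1 arrays and above the 1072 to 3231 of the other CA3 arrays. Its CA3 pyramidal sum of 1141 was the lowest and its dentate granule sum of 1612 the highest of the CA3 arrays. Without it, 10 members rather than 12 passed for age in CA3. Ndufv1 was among those lost (0.21, adjusted p = 0.0602, limma). For diet in CA3, 1 rather than 2 passed, Ndufa7 alone (4.71% of all probe sets). Without its animal, 4 rather than 3 passed for CA3 against CA1 and 9 rather than 11 for DG against CA3.

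In oxidative phosphorylation, complexes I and II pass electrons from NADH and succinate to ubiquinone. Complex III hands them on to cytochrome c, and complex IV passes them to oxygen. Complexes I, III and IV pump protons across the inner mitochondrial membrane, and complex V, the ATP synthase, lets them flow back to make ATP. Neurons draw most of their ATP for ion pumping and synaptic transmission from this pathway. The mitochondrial genome encodes some core subunits, and the genes described here are the nuclear ones.

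The promoters of these genes are known to hold sites for a few shared regulators, and those of 59 members were found in RefSeq's promoter windows of the GRCr8 build, which run from 250 bases before to 50 bases after the start of the gene. A short motif for each of 4 factors was searched on both strands. The NRF1 core GCATGCG was held by 8 member windows (13.6%, against 3.54% of all 27457 windows), the ETS core CCGGAAG, to which the GABP factor binds, by 19 (32.2% against 9.22%), the oestrogen-related receptor core AAGGTCA by 8 (13.6% against 4.37%) and the YY1 core ATGGCGG by 14 (23.7% against 5.22%). A copy of GCATGCG can overlap its own reverse complement, as it does in Uqcrc1, and ATGGCGG can coincide with the start of a coding sequence. At least 1 of the motifs was present in 34 of the 59 windows. The windows below belong to members on which the results turn: Ndufs8 and Uqcrc1, which were called higher with age in every region, and Uqcrh and Cox7b, which were called lower in the restricted DG. Capitals mark the motifs, and the strand is that of the gene. Ndufs8 (chr1:210573649-210573948, minus strand) has a reverse ETS match 12 bases before the start. Uqcrc1 (chr8:118467973-118468272, plus strand) has overlapping NRF1 matches 38 and 37 bases before the start and a YY1 match 2 bases after it. Uqcrh (chr5:134790833-134791132, minus strand) has reverse ETS and YY1 matches, 83 bases before and 26 bases after the start. Cox7b (chrX:75148786-75149085, plus strand) holds none of these letters. A match describes the letters in the window and says nothing of binding.

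Ndufs8: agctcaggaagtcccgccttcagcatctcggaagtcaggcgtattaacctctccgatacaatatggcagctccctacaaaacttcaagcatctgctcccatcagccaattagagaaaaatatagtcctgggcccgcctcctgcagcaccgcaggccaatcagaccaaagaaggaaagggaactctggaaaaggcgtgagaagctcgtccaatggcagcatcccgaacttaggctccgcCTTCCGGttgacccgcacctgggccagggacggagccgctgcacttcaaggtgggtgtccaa

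Uqcrc1: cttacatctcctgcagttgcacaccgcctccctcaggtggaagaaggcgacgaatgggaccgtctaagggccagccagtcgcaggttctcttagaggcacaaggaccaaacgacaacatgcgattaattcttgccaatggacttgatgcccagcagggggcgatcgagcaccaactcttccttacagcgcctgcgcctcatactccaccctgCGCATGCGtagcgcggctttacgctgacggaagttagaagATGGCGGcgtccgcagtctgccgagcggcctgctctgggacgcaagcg

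Uqcrh: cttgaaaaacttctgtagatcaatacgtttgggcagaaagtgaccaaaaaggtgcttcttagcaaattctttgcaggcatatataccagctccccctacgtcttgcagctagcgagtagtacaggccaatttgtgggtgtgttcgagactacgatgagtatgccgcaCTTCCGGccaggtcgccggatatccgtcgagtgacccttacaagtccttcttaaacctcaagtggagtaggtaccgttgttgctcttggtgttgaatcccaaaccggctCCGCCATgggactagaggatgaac

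Cox7b: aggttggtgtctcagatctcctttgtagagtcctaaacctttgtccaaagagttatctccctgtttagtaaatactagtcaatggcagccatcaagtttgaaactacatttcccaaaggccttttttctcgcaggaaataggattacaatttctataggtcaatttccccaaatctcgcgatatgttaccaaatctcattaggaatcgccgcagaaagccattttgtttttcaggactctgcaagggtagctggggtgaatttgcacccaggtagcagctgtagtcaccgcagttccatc

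Most members were detected on every array. Present calls, the array software's verdict that a probe set is detected, were made on all 45 arrays for 62 members. The others were Cox6c1 (38 arrays), Atp5i (30), Cox6b2 (12), Cox4i2 and Cox6a2 (2 each), and Cox8h, now Cox8b, and Ndufb8 (0). Cox4i2, Cox6a2 and Cox8h, isoforms used mainly in lung or in heart and skeletal muscle, did not pass the filter on low signals, so 66 members were tested. Ndufb8 passed that filter although no array called it present. The middle-aged arrays and the rest differed in a control as well. The DapX probe sets, which read bacterial dap transcripts and no rat gene, gave 257 to 332 in the value table on the 9 middle-aged arrays (median 295). They gave 70.0 to 128 on 22 arrays (median 89.7), which were all old ad libitum arrays, the 3 CRO_GP arrays of CA1 and CRO_GP replicate 1 of CA3. The other 14 restricted arrays gave 1.78 to 6.76 (median 3.52). In no region can age be told apart from the first step of this control, and in DG diet cannot be told apart from the second.

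In the dChip signals more oxidative phosphorylation genes were called higher than lower in the old ad libitum rats against the middle-aged ones, while the value table had medians near or below 0. In CA1, 19 of 66 members passed the threshold (limma on log2(dChip signal + 16) of the age table, 6 old against 3 middle-aged arrays, Benjamini-Hochberg adjusted over 18625 probe sets), 16 higher and 3 lower. Of all probe sets 27.8% passed (20.5% higher, 7.21% lower), so the members' share was near the background. In CA3, 12 members passed (10 higher, 2 lower) against 20% of all probe sets (15.2% higher, 4.86% lower), again near the background. In DG 14 members passed (12 higher, 2 lower) against 10.3% (8.20% higher, 2.10% lower). The groups did not overlap for 22 of the 66 members in CA1 (33.3%), 25 in CA3 (37.9%) and 30 in DG (45.5%), called or not, beside 28.8%, 24.7% and 19% of all probe sets. The median log2 difference over the members was 0.10 in CA1, 0.05 in CA3 and 0.11 in DG, beside 0.07, 0.05 and 0.04 over all probe sets tested. The counts depended on single libraries, and the shares of all probe sets fell with them. In CA1, 9 members passed without ALMA replicate 2 and 12 without replicate 3 (18.5% and 18.4% of all probe sets). In CA3, 7, 7 and 6 passed without ALMA replicates 1, 2 and 3 (13.8%, 12.8% and 12.5%). In DG, 5 passed without ALMA replicate 1 and 7 without replicate 2 (3.76% and 4.53%). There 8 passed without replicate 3 of either ALO_GP (6.9%) or ALO_PP (7.6%).

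By complex, the CA1 calls were 10 in complex I (9 higher), 2 in complex III (1 higher), 2 in complex IV and 3 in complex V (all higher), with a median log2 difference of 0.13 in complex I and 0.01 in complex II. In DG complex I had 7 calls (6 higher), and in CA3 it had 4 (3 higher). Complex II had none in any region. Called higher in dChip in all 3 regions were 7 members: Ndufv3l, Ndufs8, Uqcrc1, Cox5b, Atp5d, Atp5i and, with the opposite sign in the value table, Atp5g2. Called lower in dChip in all 3 were Cox6c1 and, again with the opposite sign in the value table, Ndufa7. The sign of the difference was the same in all regions for 53 of 66 members. The differences came from the same animals, and the median over all probe sets was also positive in each region. No share over all probe sets is given beside these counts across regions, so they are not read as a trait of the members.

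**Figure D1:**
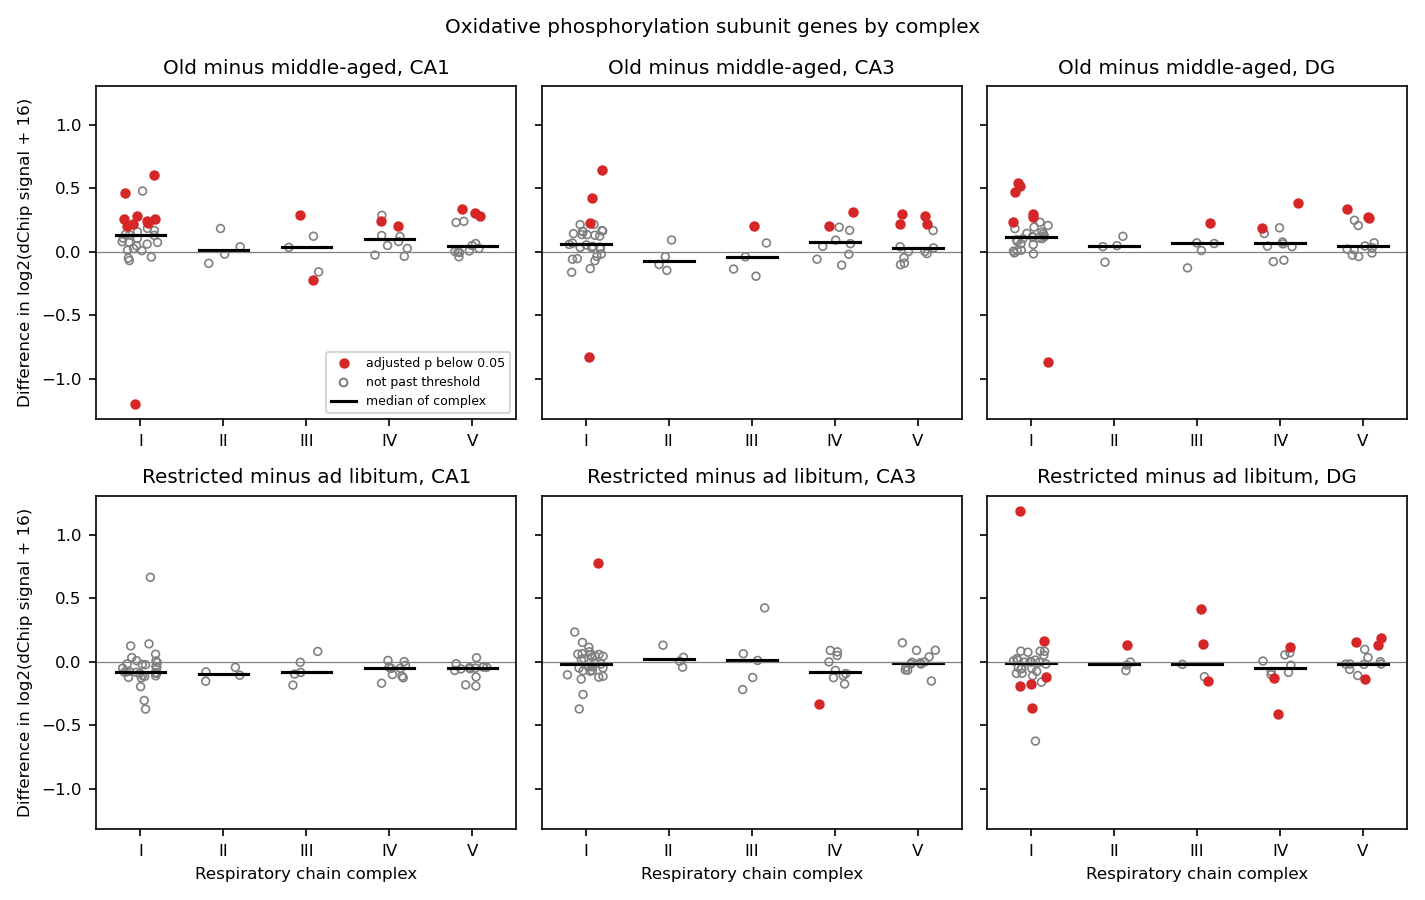
Differences of each subunit gene by complex, in log2(dChip signal + 16), for old minus middle-aged ad libitum arrays (top row) and restricted minus ad libitum old arrays (bottom row) in the 3 regions. Red points passed the adjusted threshold and black lines are medians: with age the complex I points lie mostly above 0, with diet only CA3 (2 members) and DG (17 of the points shown) hold red points.

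Ndufv3l, the probe set for Ndufv3, a small subunit of the NADH-oxidising module of complex I, had the largest difference among the members called higher in CA1 and CA3. In CA1 its dChip signals in the age table were 934, 1093 and 1126 in the middle-aged rats, and 1457 at the lowest, 1652 at the median and 1678 at the highest of the old rats. In CA3 they were 1058, 1174 and 1108 against 1616, 1743 and 1906, and in DG 960, 1036 and 1163 against 1391, 1518 and 1625. The groups did not overlap in any region, with log2 differences of 0.61 ± 0.08 (SE; adjusted p = 4.06e-04, limma), 0.65 ± 0.07 (adjusted p = 3.46e-04) and 0.52 ± 0.08 (adjusted p = 0.00384). It was the only member that also passed in the value table in all 3 regions, with differences of 0.53, 0.69 and 0.50. A dimmer second probe set of the gene gave dChip differences of 0.53, 0.30 and 0.37.

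Ndufs8, an iron-sulphur subunit of the core of complex I, was next. Its dChip signals in CA1 were 2207, 2198 and 2181 in the middle-aged rats against 2817, 2949 and 3340 (lowest, median and highest) in the old. In CA3 they were 2217, 2464 and 2436 against 2877, 3237 and 3392, and in DG 1995, 2356 and 2268 against 2877, 3085 and 3165. Every old array lay above every middle-aged one. The log2 differences were 0.46 ± 0.07 (adjusted p = 0.00107, limma), 0.43 ± 0.07 (adjusted p = 0.00230) and 0.47 ± 0.07 (adjusted p = 0.00357). In the value table the differences were smaller, 0.26, 0.20 and 0.27, and passed in CA1 alone (adjusted p = 0.0483).

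Of the other complex I subunits, Ndufv1, which binds NADH and flavin mononucleotide, rose by 0.26 in CA1 and 0.23 in CA3 on the log2 dChip scale, and by 0.28 and 0.25 in the value table, past the threshold (limma) in both. Ndufs7, an iron-sulphur core subunit, passed in both signals in CA1 (0.26 and 0.34) and DG (0.24 and 0.29). The accessory subunit Ndufa11 passed in CA1 with 0.23 in dChip and 0.59 in the value table. The accessory subunit Ndufs5b, now Ndufs5, passed in DG, with 0.30 and 0.36. Ndufb8 was called higher in DG by 0.54 in dChip, but no array called it present and its value table difference was 0.04.

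In complex III the core proteins moved apart. Uqcrc1 was called higher in dChip in each region (0.29, 0.20 and 0.23), while its value table differences of 0.21, 0.09 and 0.17 did not pass. Uqcrc2 was lower in CA1 in both signals. Its dChip signals there were 7237, 7255 and 7494 in the middle-aged rats against 5839, 6228 and 6884 (lowest, median, highest) in the old, a log2 difference of -0.22 ± 0.06 (adjusted p = 0.0277, limma) in dChip and -0.28 (adjusted p = 0.0200) in the value table. In CA3 and DG the value table also called it lower (-0.32 and -0.28), where dChip gave -0.13 in both without passing.

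Among complex IV genes, Cox7b, a small nuclear subunit, was higher in old CA3 and DG. The age table held 3518, 3799 and 3866 in middle-aged CA3 against 4454, 4641 and 4753 in old CA3, and 3178, 3361 and 3465 in middle-aged DG against 4074, 4425 and 4588 in old DG. Neither pair of groups overlapped, and the log2 differences were 0.32 ± 0.05 (adjusted p = 0.00353, limma) and 0.39 ± 0.06 (adjusted p = 0.00622). The value table gave 0.23 (adjusted p = 0.239) and 0.42 (adjusted p = 0.0472). In CA1 the groups overlapped, at 3354 to 3900 against 3575 to 4991.

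In complex V, Atp5d, the delta subunit, gave 4968, 4854 and 4750 in middle-aged CA1 against 5631, 6094 and 6557 in old CA1, groups that did not overlap. Its log2 differences over the regions were 0.33 ± 0.06 (adjusted p = 0.00319, limma), 0.30 ± 0.05 (adjusted p = 0.00470) and 0.27 ± 0.06 (adjusted p = 0.0187), and 0.40, 0.29 and 0.25 in the value table, where CA1 and CA3 passed. Atp5i, subunit e of the membrane part, was called higher in each region in dChip. It was also called present on 0 of 3, 0 of 3 and 2 of 3 middle-aged arrays of CA1, CA3 and DG, and on all old ad libitum ones. The genes Atp5g1, Atp5g2 and Atp5g3 encode the same mature c subunit of the proton-carrying ring. Only Atp5g2 passed, with dChip differences of 0.31, 0.28 and 0.28, but its value table differences were -0.04, -0.04 and -0.03. Atp5g1 gave 0.23, 0.17 and 0.21 and Atp5g3 0.00, -0.05 and -0.03, none past the threshold.

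The value table gave fewer calls of higher signal. It called 9 of 65 members in CA1 (7 higher, 2 lower; 18.1% of all probe sets, 10.8% higher and 7.39% lower), 9 in CA3 (3 higher, 6 lower; 14.9%, 9.85% and 5.05%) and 5 in DG (4 higher, 1 lower; 6.63%, 5.10% and 1.52%), with median log2 differences of -0.02, -0.09 and 0.01. Called in the same direction by both signals were 8 members in CA1, 3 in CA3 and 4 in DG, without a share of all probe sets to set beside these counts. In CA3 the value table alone called Atp5a1 (-0.36), Ndufa5 (-0.36), Ndufc2 (-0.33), Ndufb3 (-0.32), Uqcrc2 (-0.32) and Sdhd (-0.27) lower with age.

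**Figure D2:**
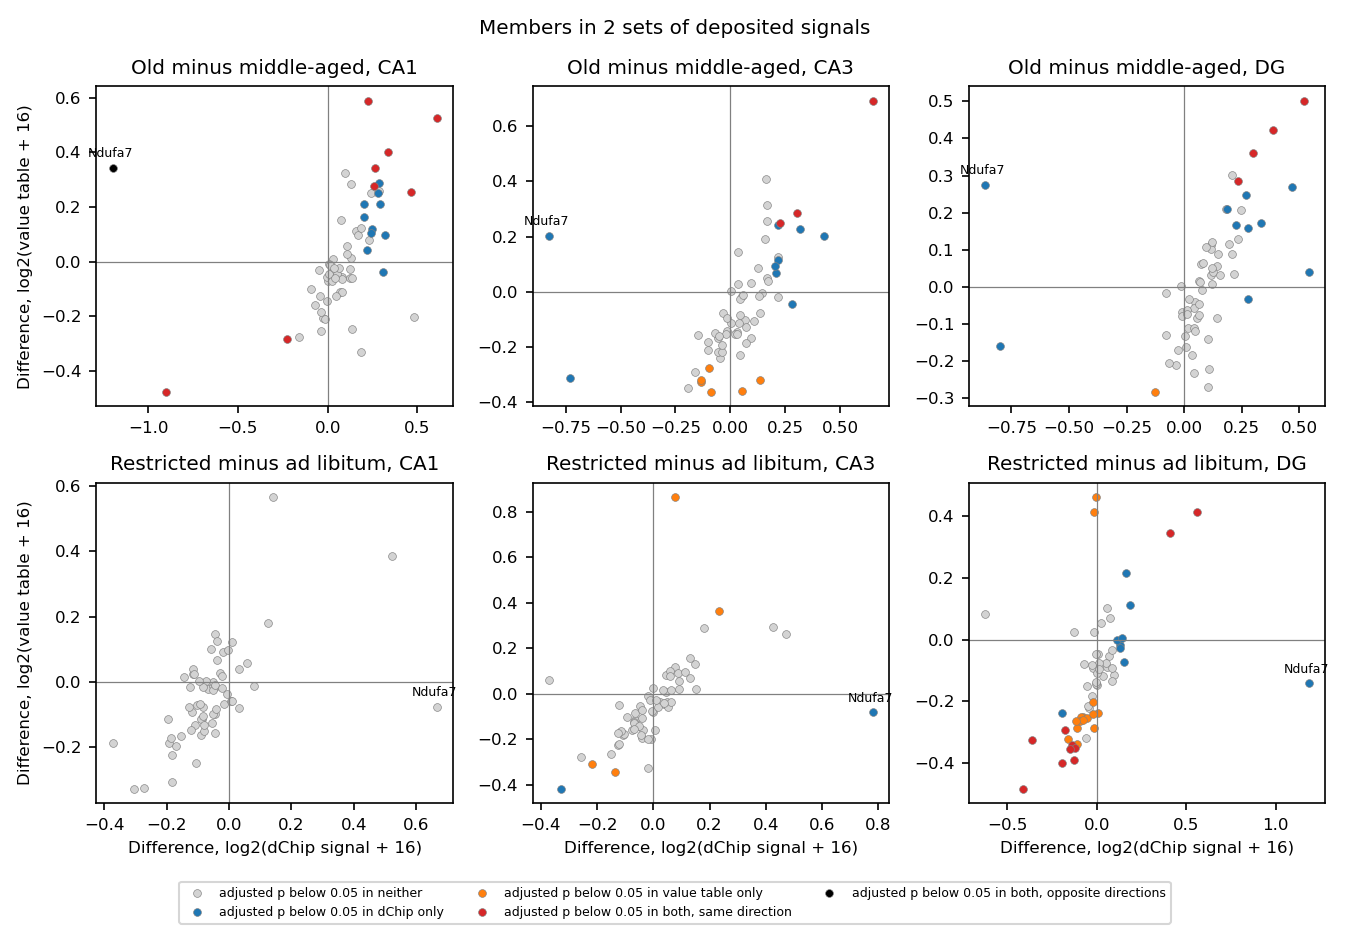
Each member's log2 difference in the dChip signal (horizontal axis) and in the value table (vertical axis), for age (top row) and diet (bottom row) in the 3 regions, coloured by which signal passed the adjusted threshold. Points called in both signals lie in matching quadrants, except Ndufa7 in old minus middle-aged CA1 (-1.20 in dChip, 0.34 in the value table).

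Ndufa7, an accessory subunit of complex I, had the greatest dChip differences of any member, and the second signal went the other way. In the age table it read 6019, 5987 and 4613 in middle-aged CA1, 4449, 4586 and 4891 in CA3 and 3486, 4061 and 6122 in DG. The old rats read 2287 to 2609 in CA1, 2479 to 2955 in CA3 and 2137 to 2782 in DG, so the groups lay far apart, with log2 differences of -1.20, -0.83 and -0.86. In the value table the same probe set read 658, 615 and 688 in middle-aged CA1 against 682 to 920 in old CA1, a difference of 0.34 (adjusted p = 0.0329, limma) with overlapping groups. A second, dimmer probe set of Ndufa7 gave negative age differences in both signals, -0.28, -0.21 and -0.18 in dChip and -0.46, -0.43 and -0.28 in the value table.

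In the diet table the dChip signal of Ndufa7 was high on 13 of the 14 restricted arrays of low DapX. In DG the ad libitum arrays read 2418 to 3133 and the restricted arrays, all of low DapX, 5013 to 9352. In CA1 the CRO_GP arrays, of the same DapX level as the ad libitum ones, read 2727, 2751 and 4381, and the CRO_PP arrays, of low DapX, 5913, 5830 and 4905. In CA3 CRO_GP replicate 1, the restricted array of higher DapX there, read 3708, and CRO_PP replicate 4, an array of low DapX that the authors marked as an outlier, read 3342. The other 4 restricted CA3 arrays read 5508 to 6471. The part of this control in the result was not tested, and no direction is given for Ndufa7.

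**Figure D3:**
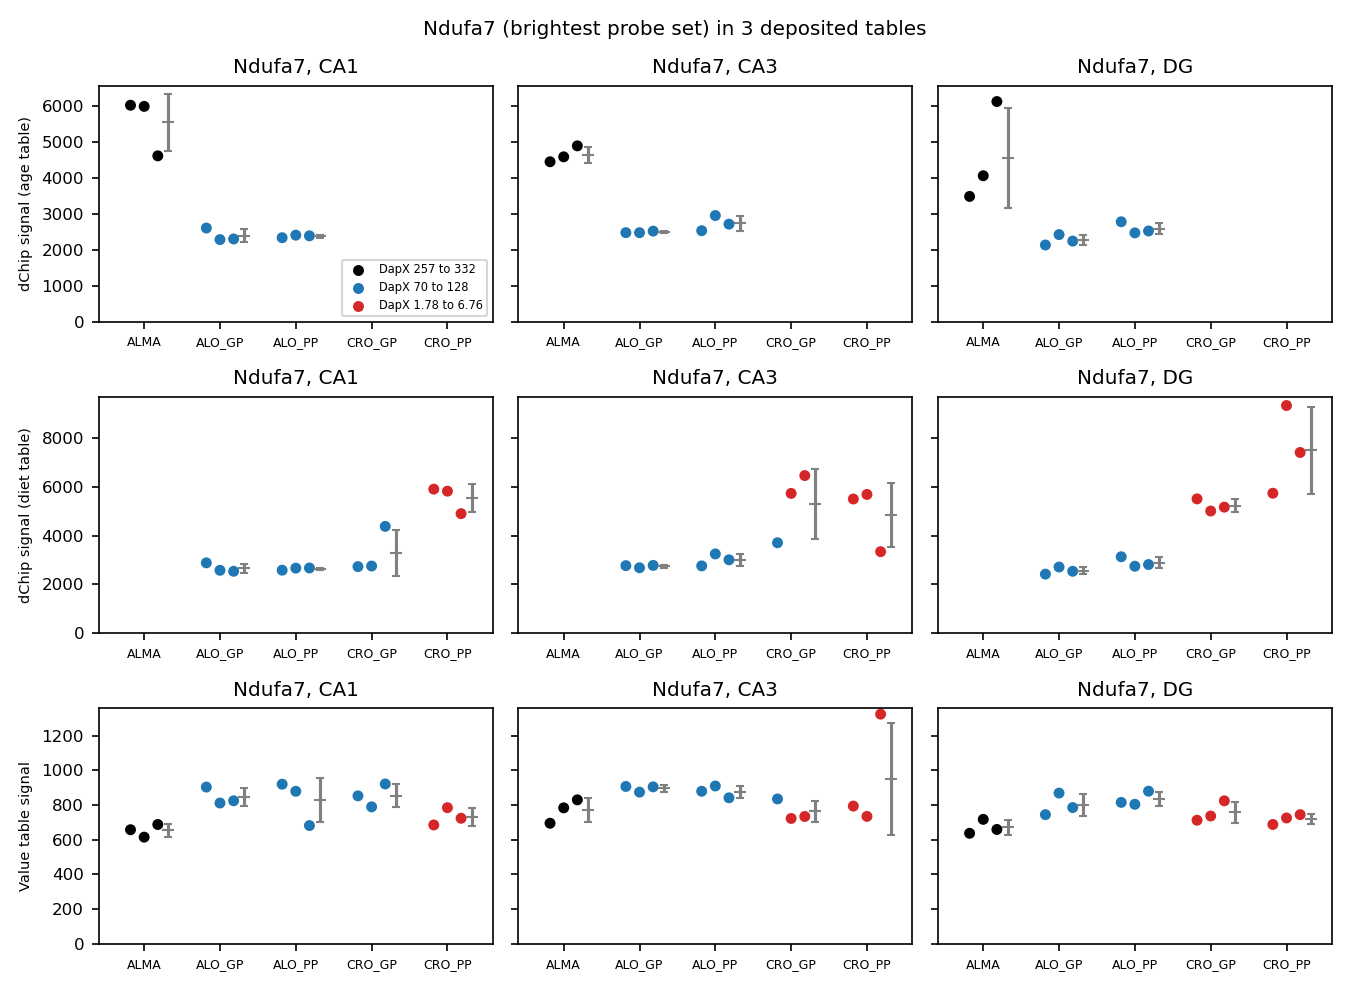
Signal of the brightest Ndufa7 probe set on each array, by class and region, in the age table (top), the diet table (middle) and the value table (bottom), with group mean and SD and points coloured by the DapX control of the array. The middle-aged arrays read highest in the age table and lie below most old ad libitum arrays in the value table.

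Cox6c1, the pseudogene, was dim. It read 151 to 174 in middle-aged CA1 against 65.0 to 91.9 in old CA1 in the age table, and it was lower with age in every region in dChip (-0.90, -0.73 and -0.80), with -0.48 in CA1 in the value table.

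Diet was compared in the old rats, 6 restricted against 6 ad libitum arrays per region, so the ad libitum arrays are those of the age comparison. No member passed in CA1 (limma on the diet table; 0.0215% of all probe sets passed, and 7 of 66 members had an unadjusted p below 0.05, against 24% of all probe sets). The value table also called 0 members there (0.209%). In CA3 2 passed, 1 in each direction (8.38% of all probe sets, 2.94% higher and 5.44% lower), and the value table called 4 (6.29%). In DG 19 passed, 10 higher and 9 lower (31.7%, 12.4% higher and 19.4% lower), a share near the background. The groups did not overlap for 4 of the 66 members in CA3 (6.06%) and 14 in DG (21.2%), called or not, beside 5.03% and 14.9% of all probe sets. In DG the split depended on the scale. Quantile normalisation of the dChip signals gave 5 higher and 13 lower, for which no share of all probe sets is given. The value-table signals gave 4 higher and 22 lower (20.6% of all probe sets, 11.6% higher and 8.99% lower). By both signals, 10 members were called in the same direction in DG, again without a share of all probe sets beside it. The DG count was 12 without ALO_GP replicate 2 or 3 or CRO_PP replicate 3, and the CA3 count was 1 without any one of 9 of the 12 arrays.

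The DG members called lower in both signals were small subunits of complexes I, III, IV and V. Cox7b read 4237 at the lowest, 4596 at the median and 4731 at the highest of the ad libitum arrays, and 3156, 3381 and 3743 in the restricted ones. The groups did not overlap, and the log2 difference was -0.42 ± 0.05 (adjusted p = 4.04e-04, limma) in dChip and -0.48 (adjusted p = 0.00396) in the value table. Ndufv3l read 1546, 1656 and 1770 against 1197, 1282 and 1393, with differences of -0.36 ± 0.05 (adjusted p = 5.20e-04) and -0.32 (adjusted p = 0.00996). The second probe set of Ndufv3l gave -0.67 in dChip.

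Uqcrh, the hinge protein of complex III, read 7790, 7893 and 8437 (lowest, median, highest) in ad libitum DG and 7012, 7095 and 7483 in restricted DG, groups that did not overlap. Its log2 difference was -0.15 ± 0.04 (adjusted p = 0.0130, limma), and -0.36 in the value table. The accessory subunits Ndufa1, Ndufa2 and Ndufa5 of complex I fell by 0.12, 0.19 and 0.18 on the log2 dChip scale, and by 0.35, 0.40 and 0.29 in the value table. Cox7a2, a small subunit of complex IV, gave -0.13 and -0.39, and Atp5e, the epsilon subunit of the ATP synthase, -0.14 and -0.34. These differences were larger in the value table than in dChip.

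Uqcrfs1, the Rieske iron-sulphur protein of complex III, was the one subunit called higher in restricted DG by both signals. It read 2787, 3149 and 3393 in the ad libitum arrays against 3697, 4060 and 4683 in the restricted ones. No restricted array fell into the ad libitum range, and the log2 difference was 0.41 ± 0.08 (adjusted p = 0.00341, limma) in dChip and 0.34 (adjusted p = 0.0426) in the value table. Among the other DG members called higher in dChip, the pseudogene Cox6c1 passed in the value table as well. Ndufa7 had the opposite sign there and did not pass (-0.14, adjusted p = 0.132, limma). The rest did not pass in the value table: Atp5a1 (0.18 in dChip, 0.11 in the value table), Ndufv2 (0.16, 0.22), Atp5b (0.15, -0.07), Uqcrc1 (0.14, 0.0042), Sdha (0.13, -0.03), Atp5d (0.13, -0.02) and Cox8a (0.11, -0.00060). Atp5a1 and Atp5b are the alpha and beta subunits of the catalytic head. The value table also called Ndufa6, an accessory subunit, higher in DG (0.46) and CA3 (0.86), where dChip gave -0.0045 and 0.08.

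**Figure D4:**
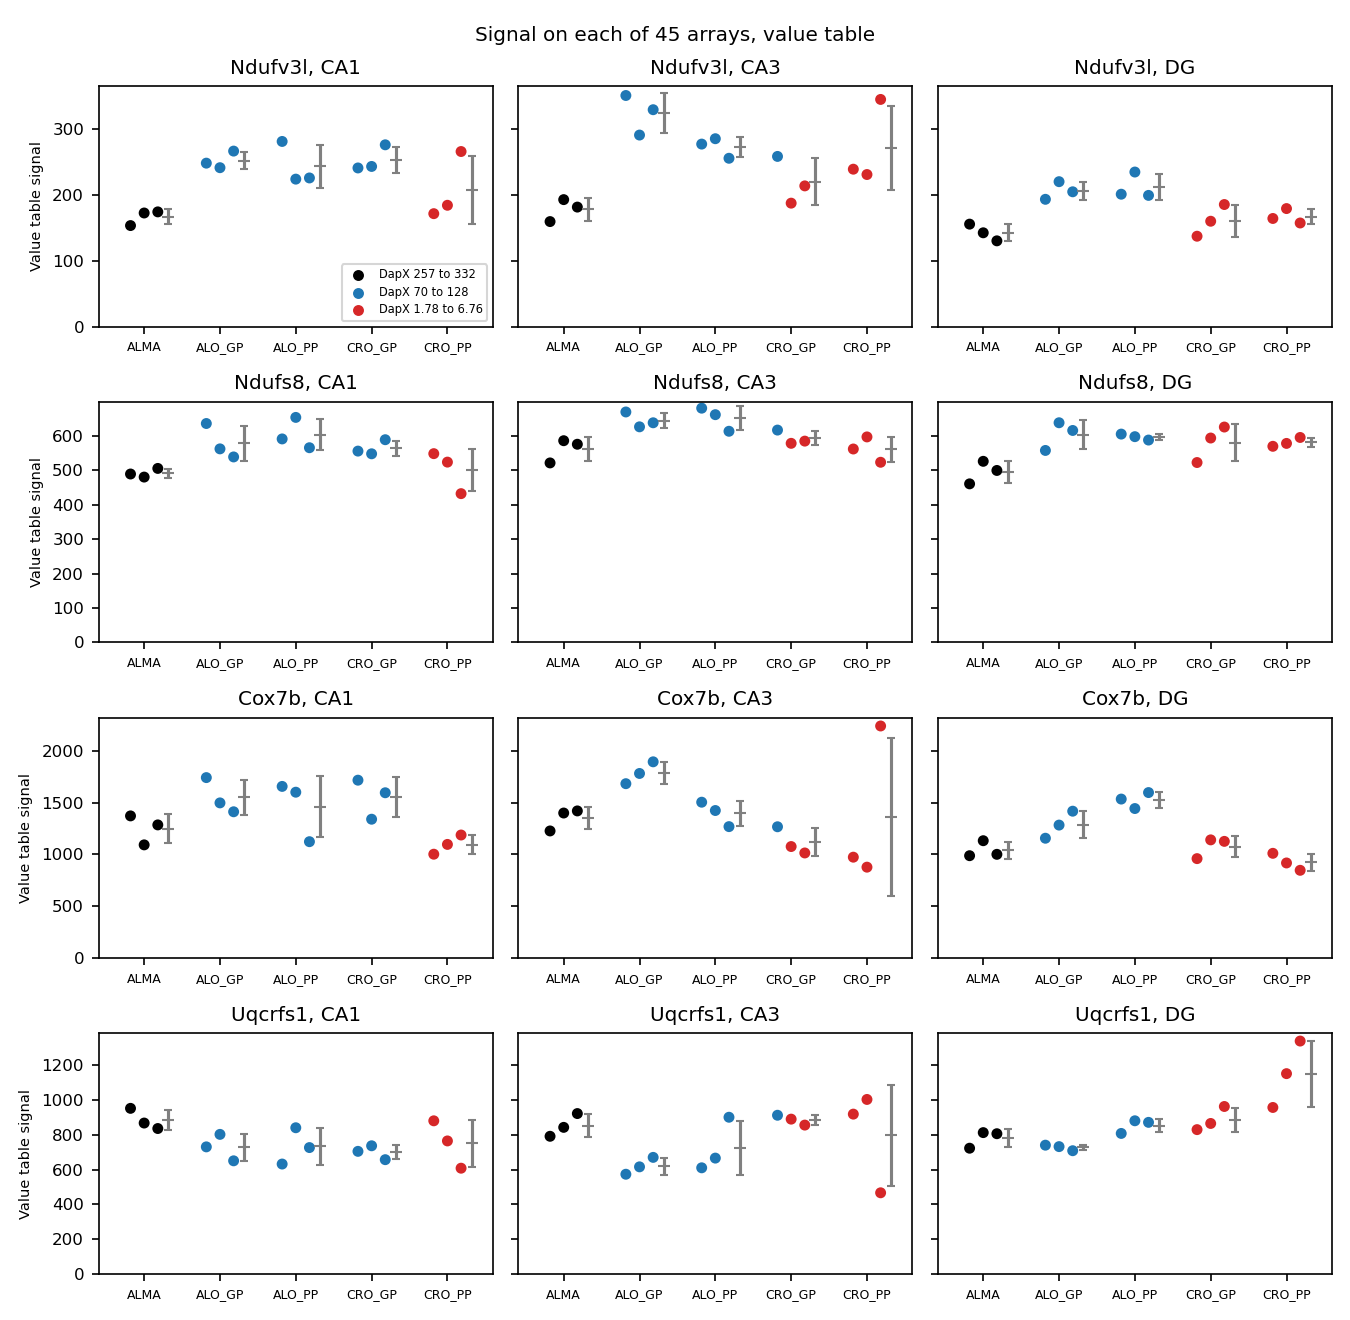
Value table signal of Ndufv3l, Ndufs8, Cox7b and Uqcrfs1 on each of the 45 arrays, by class and region, with group mean and SD and points coloured by the DapX control. Middle-aged Ndufv3l (153 to 192 in CA1 and CA3) lies below every old ad libitum array, and in DG the restricted Cox7b arrays (847 to 1141) lie below every ad libitum one (1156 to 1597).

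In CA3 a single array decided the count. The authors' descriptor sheet marks CRO_PP replicate 4 of CA3 as an outlier, and without it 17 members passed, 9 higher and 8 lower, against 26.1% of all probe sets (10.0% higher, 16.1% lower). With all 12 arrays Cox7b fell by 0.33 (adjusted p = 0.0334, limma), and without the array it fell by 0.40 (adjusted p = 6.46e-04). That array read 4836 for Cox7b, against 3235 to 3934 on the other restricted CA3 arrays and 4600 to 4825 on the ad libitum ones. For Uqcrfs1 it read 1958, against 3741 to 3860 on the other restricted arrays and 2162 to 3365 on the ad libitum arrays, and the log2 difference went from 0.42 to 0.58 ± 0.10 (adjusted p = 0.00241). Without the array, CA3 and DG had calls in the same direction for Ndufv3l (-0.32 in CA3), Uqcrfs1, Ndufv2 (0.28), Atp5a1 (0.24), Sdha (0.23) and Atp5b (0.15), among others. Among the remaining restricted CA3 arrays, replicate 1 of CRO_GP, of ad libitum DapX level, read 3860 for Uqcrfs1, the highest of all, and 3934 for Cox7b, the highest of those left.

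**Figure D5:**
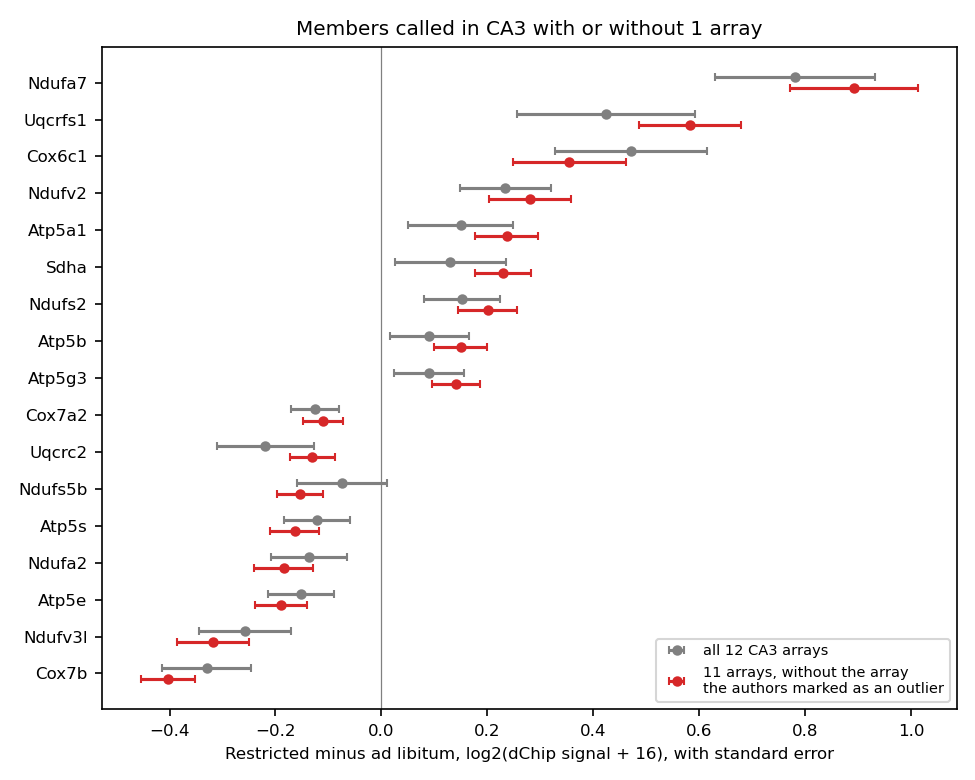
Log2 difference with standard error, restricted minus ad libitum, for the 17 members called in CA3 without the array the authors marked, from all 12 arrays (grey) and from 11 arrays (red). Leaving out the array moved Uqcrfs1 from 0.42 to 0.58 and Cox7b from -0.33 to -0.40.

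CA1 allowed diet to be read within 1 DapX level. The 3 CRO_GP arrays share that level with the 6 ad libitum arrays, and between them no member passed (limma; 0.0322% of all probe sets; this alternative was among those planned). The log2 differences were 0.01 ± 0.09 for Cox7b, -0.09 ± 0.06 for Ndufv3l, 0.06 ± 0.09 for Uqcrfs1 and -0.02 ± 0.05 for Uqcrh. The CRO_PP arrays have the low DapX level. Against the 3 ALO_PP arrays, in a comparison added after seeing the data, 1 member passed, Ndufa7 (1.06 ± 0.11, adjusted p = 0.0174; 2.92% of all probe sets), and Cox7b gave -0.28 ± 0.12 (adjusted p = 0.231) with groups that did not overlap. Cox7b in CA1 read 4073, 4617 and 4703 on the CRO_GP arrays, 3229, 3561 and 3713 on the CRO_PP arrays and 3743 to 5069 on the ad libitum ones. Ndufv3l read 1579 to 1689 on the CRO_GP arrays and 1247, 1345 and 1646 on the CRO_PP arrays. CRO_PP replicate 3 of CA1 was also marked as an outlier by the authors, and 0 members passed without it (1.39% of all probe sets). Without CRO_GP replicate 1, 1 passed (1.29%). Performance and DapX level cannot be told apart among the restricted CA1 arrays.

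The age and diet comparisons share the old ad libitum arrays, so a value shifted in those arrays moves both. Side by side, the DG dChip differences with age and with diet were 0.39 and -0.42 for Cox7b, 0.52 and -0.36 for Ndufv3l, 0.27 and 0.13 for Atp5d, and 0.23 and 0.14 for Uqcrc1. For Ndufs8 they were 0.47 and -0.0031, the latter not past the threshold.

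Complex II, succinate dehydrogenase, had 0 calls with age in dChip. With age, the flavoprotein gene Sdha gave -0.09, -0.15 and -0.08 in CA1, CA3 and DG in dChip, and the iron-sulphur gene Sdhb 0.18, 0.09 and 0.12 (adjusted p = 0.0558 in CA1, limma). The membrane anchors Sdhc and Sdhd lay between -0.10 and 0.05. In the value table Sdhd was called lower in CA3 (-0.27, adjusted p = 0.0295). With diet, Sdha alone passed, in DG, at 4658 to 5259 in the ad libitum arrays and 5284 to 5711 in the restricted ones.

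Among tissue isoforms of complex IV, Cox4i2, Cox6a2 and Cox8h were called present on 2, 2 and 0 of 45 arrays and Cox6b2, the testis isoform, on 12, while Cox4i1, Cox6a1 and Cox8a were present on all. Cox6b2 passed in no comparison. Cox4i2, untested here for its low signal, has a fold of 2.27 in the authors' deposited table of age over all regions. Cox6a1 was called higher with age in CA1 (0.25, adjusted p = 0.00766, limma; 0.12 in the value table). Cox7a2l, which takes part in joining complexes III and IV, gave -0.03, -0.10 and -0.08 with age and passed nowhere.

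No member passed the threshold for behavioural performance. Poor minus good performers, with diet in the model, gave 0 calls in CA1, CA3 and DG (limma; 0.00% of all probe sets in each), with 3, 0 and 3 members at an unadjusted p below 0.05 (16.3%, 3.87% and 10.9% of all probe sets). The smallest adjusted p was 0.256 in CA1 (Cox4i1, -0.16; Cox7b, -0.24), 0.943 in CA3 and 0.173 in DG (Uqcrfs1, 0.22). In the value table no probe set passed either.

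Between regions of the 9 ad libitum rats the differences were small. With the animal as a block, 3 of 66 members passed for CA3 against CA1 (2 higher, 1 lower; limma; 22.3% of all probe sets, 8.79% higher and 13.5% lower), 3 for DG against CA1 (all lower; 16.5%, 8.13% higher and 8.40% lower) and 11 for DG against CA3 (5 higher, 6 lower; 36%, 20% higher and 16% lower), each share under the background. Without ALO_GP replicate 2 or 3, 1 member passed for CA3 against CA1 (15.8% and 14.9% of all probe sets). For DG against CA3, 6 passed without ALMA replicate 2 and 7 without replicate 3 (29.9% and 29.6%). Quantile normalisation gave 5 higher and 1 lower for CA3 against CA1 (21.5% of all probe sets). It gave 2 higher and 10 lower for DG against CA3, for which no share is given. The value table gave 5 calls (all higher; 14.5% of all probe sets), 2 (both lower; 13.0%) and 9 (all lower; 28.2%).

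Members lower in DG in both signals included Atp5g1, a c subunit gene, and Ndufa5. In the age table Atp5g1 read 3883 to 5033 in CA3 (median 4633), 3630 to 4934 in CA1 (median 4081) and 3382 to 4381 in DG (median 3875). These ranges overlap, while the test compares regions within an animal. DG minus CA3 was -0.25 ± 0.04 (adjusted p = 2.92e-04, limma) in dChip and -0.35 in the value table, and DG minus CA1 was -0.14 in dChip. For Ndufa5, DG minus CA1 was -0.15 in dChip and -0.36 in the value table, and DG minus CA3 was -0.09 and -0.48. The brightest probe set of Ndufv3l was highest in CA3, 0.11 above CA1 and 0.17 above DG in dChip, and Atp5d was 0.13 above CA1 and 0.12 above DG. Both genes passed in these comparisons in the value table as well, read from the same probe sets. The mean over the probe sets of Ndufv3l had the opposite sign for CA3 minus CA1 (-0.0234, adjusted p = 0.742, limma). Levels of different genes are not compared, since probe sets differ in brightness.

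No member's age or diet difference was shown to differ between regions. For age by region 0 of 66 members passed (limma F test, 0.0215% of all probe sets). At an unadjusted p below 0.05 there were 0 members, against 4.04% of all probe sets (smallest p 0.0666, Ndufa7, limma F test). Without ALMA replicate 3, 1 passed (0.279%). For diet by region 0 passed (0.0268%), with 6 at an unadjusted p below 0.05 (20.4% of all probe sets). The smallest adjusted p was 0.144 (Cox4nb, limma F test). Without CRO_PP replicate 3, 1 passed (1.76%). A call in one region without one in another is therefore not read as a difference between them. Failing to pass does not show that the regions were alike.

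The median deviation of the members of a complex from each gene's own mean in a region was also taken in the value table. Over the class means, complex I ran from -0.13 (CRO_GP in CA3) to 0.10 (ALO_PP in DG), complex II from -0.19 (CRO_PP in CA1) to 0.15 (ALMA in CA3) and complex III from -0.20 (CRO_PP in DG) to 0.16 (ALMA in CA3). Complex IV ran from -0.19 (CRO_GP in CA3) to 0.09 (CRO_PP in CA1), and complex V from -0.12 (CRO_PP in DG) to 0.09 (ALMA in CA3). Single arrays lay farther out than the class means. Complex IV reached 0.48 on CRO_PP replicate 4 of CA3 and 0.38 on CRO_PP replicate 3 of CA1, the arrays the authors marked as outliers, and complex II was at -0.38 and -0.33 on the same arrays. CRO_PP replicate 2 of DG, which the authors did not mark, had the lowest medians of complexes III (-0.36), IV (-0.25) and V (-0.24).

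Genes around the chain were read from lists chosen with earlier results of these data known, and their counts stand beside the shares of all probe sets called higher and lower given above. Of 27 assembly factors tested, 6 rose and 1 fell with age in CA1, a share near that of all probe sets, 6 rose in CA3 and 5 in DG. In restricted DG 10 fell and 0 rose, against 19.4% of all probe sets lower. Coa3, an assembly factor of complex IV, gave 0.33, 0.33 and 0.38 with age, and Uqcc2, of complex III, 0.41, 0.39 and 0.53 and then -0.21 with diet in DG.

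Of 14 regulators of mitochondrial biogenesis tested for age, 4 rose and 1 fell in CA1, 3 rose and 1 fell in CA3 and 2 rose in DG. Esrra, the oestrogen-related receptor alpha, gave 0.44, 0.30 and 0.30, and Gabpb1, a subunit of the GABP factor, 0.36, 0.31 and 0.30. With diet in DG, 2 of 13 rose, Polrmt, the mitochondrial RNA polymerase (0.82), and Twnk, the mitochondrial DNA helicase (0.39). The 3 that fell were Tfb1m (-0.60), which methylates mitochondrial ribosomal RNA, and both GABP genes, Gabpa (-0.46) and Gabpb1 (-0.16). In CA3 Gabpa fell (-0.64) and Twnk rose (0.48).

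Of 13 electron carrier and side-entry genes, 2 rose and 3 fell with age in CA1, 2 and 3 in CA3, and 1 and 1 in DG. Dhodh, which passes electrons from pyrimidine synthesis to ubiquinone, gave -0.73, -0.70 and -0.62 with age and 0.35 with diet in DG. The other diet calls in DG were Etfdh (-0.47), which passes on electrons from fatty acid oxidation, and Coq7 (-0.28), of ubiquinone synthesis. Of 18 genes of pyruvate dehydrogenase and the citric acid cycle, 4 rose and 1 fell with age in CA1, 3 rose and 3 fell in CA3, and 2 rose in DG, and none passed with diet in DG. Of 13 mitochondrial carriers and pores, 2, 1 and 1 rose with age, among them Ucp2 (1.14 in CA1). With diet in DG, the carriers Slc25a11 (0.29) and Slc25a3 (0.13) rose and Atpif1 (-0.13), the inhibitor of the ATP synthase, fell.

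Markers of other cells moved with age as well. Of 8 microglial markers tested, 5 rose in CA1, 3 in CA3 and 4 in DG, with median log2 differences of 0.95, 0.82 and 0.75. Their summed value table signal was 961 to 1208 in middle-aged CA1, 1850 to 5128 in ALO_GP CA1 and 1803 to 2174 in ALO_PP CA1. Of 8 astrocyte markers, 4 rose in CA1. In CA3 and DG only Gfap among them passed (0.29, adjusted p = 0.0159, and 0.32, adjusted p = 0.00541, limma). Of 8 neuronal markers, 1, 1 and 0 rose with age, and 3 rose in restricted DG, where 3 microglial markers fell, their summed signal being 1568 to 2923 in ad libitum and 1288 to 1609 in restricted DG. Markers of the neighbouring regions moved in CA3. With age, the CA1 pyramidal markers had a median difference of 0.72 there, with 1 of 4 past the threshold (Wfs1, 1.01, adjusted p = 0.0248, limma). Pou3f1 (0.86) and Man1a1 (0.58) were also positive and Mpped1 (-0.29) was negative, none of them past the threshold. The dentate granule markers had a median of 0.35, with 1 of 3 past the threshold (C1ql2, 1.19, adjusted p = 0.0257, limma). With diet, the same lists had medians of -0.60, with 1 of 4 lower (Man1a1, -0.71), and -0.58, with 1 of 3 lower (Calb1, -0.65). The summed CA1 pyramidal markers in CA3 were 1072 to 2152 in the middle-aged, 1954 to 4810 in the old ad libitum and 1288 to 2465 in the restricted arrays. The 4810 is from ALO_PP replicate 3, and the other old ad libitum CA3 arrays reached 3231. In DG, the CA3 pyramidal markers Bok (0.39, adjusted p = 0.0154, limma) and Cpne4 (0.71, adjusted p = 0.0355) were called higher with diet. Grik4, Col6a1 and Nectin3 were also positive there, without passing. The summed CA3 pyramidal markers in DG were 842 to 1583 in the old ad libitum and 1593 to 1963 in the restricted arrays. Ucp2 is also expressed in microglia. The part of these cells and of the dissection in the members' differences was not tested.

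The authors also deposited lists of probe sets with an unadjusted p up to 0.001. The shares below have unlike bases. Those of members count the brightest probe set of each gene, mostly detected on every array. Those of all probe sets count all 31099 on the array, without the filter on low signals used above. A higher share of members is therefore not read as an enrichment. In the authors' deposited table of age over all regions 30 members are listed, 27 higher and 3 lower (43.5% of members, against 15.6% of all probe sets), and Ndufv3l has a fold of 1.52. In the authors' deposited table of diet over all regions 16 members are listed, 4 higher and 12 lower (23.2% against 13.5%), with Cox7b at -1.26. The authors' deposited tables by region list 5 members for age in CA1 (7.25% against 6.95% of all probe sets), 9 in CA3 (13.0% against 4.77%) and 10 in DG (14.5% against 2.96%). For diet the authors' deposited tables list 0 in CA1 (1.13% of all probe sets), 8 in CA3 (11.6% against 5.13%) and 8 in DG (11.6% against 7.74%).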

How the data were processed

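Affymetrix RAE 230 2.0 arrays were read from the deposited files. The authors deposited dChip signals (model-based expression indices, linear scale), in 1 table of 27 ad libitum arrays (the age table) and 1 of 36 old arrays (the diet table), and in 1 further diet table per region, used as an alternative, with detection calls (other unit: present, marginal or absent). The authors' descriptor sheet says that arrays were normalised for each region separately for ageing and together for diet, while the deposited age table holds all 3 regions; which normalisation its signals carry is not known, and this limits the dChip comparisons between regions. A second deposited signal value per array, on a linear scale with a common trimmed mean, is called the value table; no source used here names its software. The authors' deposited lists hold signed folds (other unit) and p-values, used for the authors' lists only. Median array signals were 151.2 to 175.5 in the age table, 153.1 to 187.7 in the diet table and 29.63 to 45.48 in the value table, with 58.9% to 67.42% present calls. The number of arrays limits the precision.

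Signals plus a pseudocount of 16 were put on the log2 scale, 18625 probe sets whose table mean exceeded the 40th percentile were kept, and limma 3.58.1 (R 4.3.3) applied with a two-sided adjusted threshold of 0.05. Scripts also used Python 3.11.15 and pandas 2.3.3. Performance was fitted with a diet term, regions with the animal as a block, and interactions with duplicateCorrelation. Methods were tested on simulated data. Named members are the 6 largest differences in each direction past the threshold with every array on its side, or else the 3 of smallest p. Complex II and isoform families were added, and members called in the value table alone or without the marked array were named after their values were seen. Members and lists were chosen with earlier results of these data known.

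Title replicate numbers were not used to pair classes, since arrays of 1 number correlated by -0.01 on average over 25 pairs in the age table and 50 in the diet table. Rats are separate animals, per the labels. The description of ALMA replicate 2 of CA3 carries the animal code of replicate 1, and that of CRO_GP replicate 2 of DG says poor performer; both arrays were placed by their titles. There were 0 unmapped sample columns.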

Additional observations from a re-analysis of the deposited data

Results flagged for a closer look

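Over 60 groups of 6 arrays checked, 3 had a value set apart from the others by a gap above Dixon's 95% critical share of the group's range, which chance gives in about 1 in 20 groups. In old ad libitum CA3 of the age table, ALO_GP replicate 1 was highest for Cox6c1 (signal 121, a gap of 0.629 of the range). In restricted DG of the diet table, CRO_PP replicate 3 was lowest for Ndufa2 (signal 2428, gap 0.679). In ad libitum DG of the diet table, ALO_PP replicate 1 was highest for Uqcrh (signal 8437, gap 0.638). None of the 3 is an array the authors marked as an outlier.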

How the results depend on the processing

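Counts of members called are given with the share of all probe sets in parentheses. The value table moved the count to 9 for age in CA1 (18.15%) and 5 for age in DG (6.63%). It gave 4 for diet in CA3 (6.29%) and 5 for CA3 against CA1 (14.5%). With no filter on low signals, which tests more probe sets, the counts were 8 for age in DG (4.38%) and 1 for diet in CA3 (2.7%). They were 10 for diet in DG (17.3%) and 6 for DG against CA3 (21.3%). Quantile normalisation gave 6 for CA3 against CA1 (21.5%). Without the animal as a block 0 members passed for CA3 against CA1 (14.2%) and 5 for DG against CA3 (26.3%). The title number as a block, which the arrays share only as a number, gave 7 for age in CA3 (17.3%) and 8 for age in DG (8.36%). Poor performers only gave 1 for diet in CA1 (2.9%). In the value table the sign turned for Atp5g2 with age (-0.0387 in CA1 and -0.0427 in CA3), for Ndufa7 with age (0.34, 0.20 and 0.28), diet (-0.0761, -0.0809 and -0.14) and performance (-0.13 in CA1, -0.0059 in DG), for Atp5b with diet in DG (-0.0717), and for Ndufv3l (0.0450), Ndufaf1 (0.00035) and Ndufa11 (0.011) with performance in DG. The mean over the probe sets of a gene turned Ndufv3l for CA3 against CA1 (-0.0234). The cause was not tested. Each replicate was also left out in turn. For age this gave 9 to 23 calls in CA1, 6 to 15 in CA3 and 5 to 16 in DG. The share of all probe sets was 18.5%, 12.5% and 3.76% at the lowest of these counts. For diet the counts were 0 to 1 in CA1, 1 to 17 in CA3 (26.1% at 17) and 12 to 18 in DG. For performance 0 passed. Counts were 1 to 4 for CA3 against CA1, 2 to 3 for DG against CA1 and 6 to 12 for DG against CA3. Age by region and diet by region each gave 0 to 1. No share is given for the rest of these ranges, so the ranges are not read as a trait of the members. Against a pseudocount of 64, all 80 named results kept their call.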
